A study of Mus musculus with 12 samples.

Results

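The cytosolic ribosomal protein genes of the mouse and their named paralogs were described in NIH3T3 cells, an immortalized line of mouse embryonic fibroblasts, after stimulation with IL-1β. Members were the protein-coding genes whose symbols have the form Rpl or Rps followed by a number, together with Rplp0, Rplp1, Rplp2 and Rpsa; genes of the Rps6k kinase family were left out. This gave 84 genes of the 27179 gene IDs in the count tables, 52 of the large subunit and 32 of the small subunit. Of these, 77 were the main copies of ribosomal proteins and 7 were paralogs, named after a main copy with a letter l in the symbol. Another 5 genes with matching symbols were not protein-coding in RefSeq and were left out.

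All samples came from cells with no endogenous RelA (RelA-/-), the p65 subunit of NF-κB, that carried RelA fused to the red fluorescent protein DsRed; no source used here gives the promoter that drives the fusion. The labels describe 4 groups of 3 samples, all sampled after 2 h in microfluidic devices: 0.2 ng/mL IL-1b, 100 ng/mL LPS, 0.2 ng/mL PAM, and media. All 9 tables deposited for LPS, PAM and media repeat that of IL-1 replicate 3 exactly, so those samples were not analysed and no stimulus was compared with media. What follows rests on the 3 IL-1 libraries, with 17254518, 18091073 and 18578859 counts in replicates 1, 2 and 3. The labels do not say that these were separate cultures, so an SD between them may be technical.

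The ribosome is built from ribosomal RNA and ribosomal proteins, of which the small subunit reads the mRNA and the large subunit joins amino acids. Each protein but those of the stalk is used in equal numbers, and cells control the translation of these abundant mRNAs together through a pyrimidine tract at the 5′ end, known as the TOP motif, which answers to mTOR signalling. Mammalian genomes also hold many processed pseudogenes of these genes, intronless copies of their mRNAs.

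The ribosomal protein genes took 3.15% ± 0.318 of all counts (SD, n = 3 libraries), with 2.79% in replicate 1, 3.39% in replicate 2 and 3.26% in replicate 3. The main copies of the large subunit held 1.89% ± 0.175, those of the small subunit 1.15% ± 0.130 and the paralogs 0.109% ± 0.0124. Levels are given below as counts per 1000000 counts of the library (CPM), and between genes as CPM per kb of the gene's merged exons, since reads come from along the transcript; where plain CPM or counts are used, they are named and include the effect of length. Of the 84 members, 80 reached 1 CPM in every library, among them all 77 main copies. The 4 that did not were the paralogs Rpl32l, Rpl3l, Rpl10l and Rpl39l.

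The main copies had a median of 55.0 ± 6.31 CPM per kb (SD, n = 3), against 6.81 CPM per kb for the 10703 other detected genes with a known length. Above that median lay 70 main copies and below it 7. The middle of the distribution was wide, with quartiles of 23.4 and 247 CPM per kb, and the ends lay 2697-fold apart, from Rpl8 at 2642 to Rpl28 at 0.979 CPM per kb. The ends were far apart in each library: Rpl8 had 58560, 67493 and 67752 counts and Rpl28 had 34, 31 and 32. Rpl8, Rpl4 and Rps3 together held 28.7% ± 1.46 of all counts of the members, and the 10 members with the highest CPM held 55.0% ± 1.23.

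The large and small subunits had nearly the same median. It was 54.3 ± 6.49 CPM per kb for the 46 large-subunit main copies and 55.3 ± 5.77 CPM per kb for the 31 small-subunit main copies, a ratio of 0.981 ± 0.0219. That ratio depends on the length used: per kb of the principal transcript instead of all merged exons it was 0.493.

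**Figure D1:**
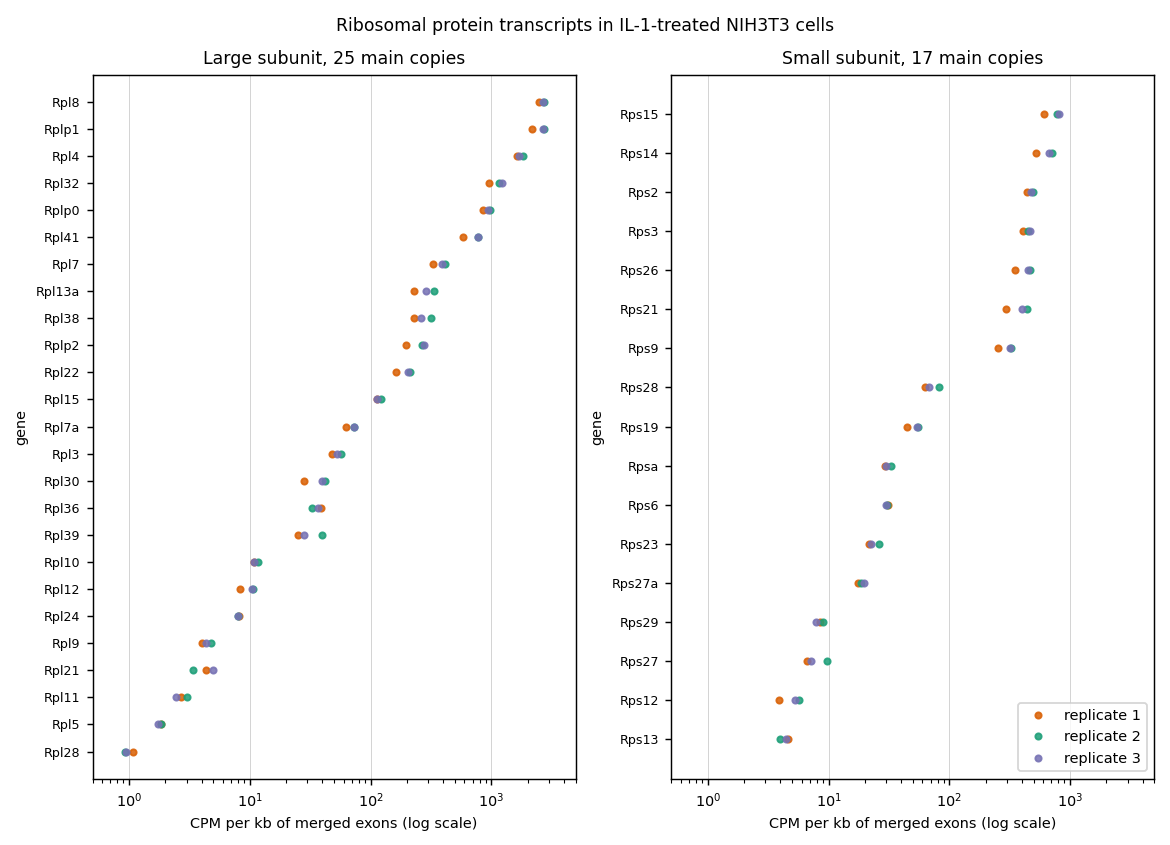
Levels of 42 main copies, those named in the text, in the 3 IL-1 libraries, as CPM per kb of merged exons on a log axis, with the large subunit on the left and the small subunit on the right, in order of the mean; each point is 1 library. They spread from Rpl8 at 2642 to Rpl28 at 0.979 CPM per kb, while the points of 1 gene lie close together, with replicate 1 often the lowest.

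Among proteins near the peptidyl transferase centre, where the peptide bond is made, levels ran from the top to the lower part of the range. Rpl8 averaged 2642 ± 129 CPM per kb, the highest mean of the members, though its range overlapped that of Rplp1. Rpl3 averaged 52.4 ± 4.65 CPM per kb, from 2608, 3267 and 3112 counts, close to the median of the main copies. Rpl10, whose loading is one of the last steps of large-subunit maturation, averaged 11.2 ± 0.507 CPM per kb, from 387, 437 and 414 counts. The ranges of these 3 genes over the libraries did not overlap. Coding windows shared with other genes made up 8.73% in Rpl8, 95.7% in Rpl3 and 100% in Rpl10. Their part in these differences was not tested.

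Proteins of the exit tunnel, through which the nascent chain leaves, were uneven too. Rpl4, which lines the tunnel, averaged 1713 ± 102 CPM per kb, from 56323, 66282 and 62869 counts. Rpl39, a very small protein further along the tunnel, averaged 30.96 ± 7.59 CPM per kb, from 623, 1026 and 750 counts. Rpl39 had the largest relative spread between libraries of the members at 5 CPM or more, with a coefficient of variation (SD over mean) of 24.5%, replicate 2 being high. Coding windows shared with other genes made up 20.3% in Rpl4 and 86.5% in Rpl39, and their part in the gap was not tested.

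The stalk proteins Rplp0, Rplp1 and Rplp2, which recruit the GTPases of translation to the ribosome, were all well above the median and together took 0.331% ± 0.0343 of all counts. Rplp1 averaged 2531 ± 314 CPM per kb from 18675, 24645 and 24977 counts. Rplp0, the protein that anchors the stalk, averaged 924 ± 58.8 CPM per kb from 24563, 29168 and 28994 counts. Rplp2 averaged 247 ± 44.3 CPM per kb from 6992, 10098 and 10580 counts. Although Rplp1 and Rplp2 act as pairs in the stalk, their ranges did not overlap, and all 3 genes were lowest in replicate 1. The size of that gap depends on length: in plain CPM Rplp1 averaged 1263 and Rplp2 511. The merged exons of Rplp2 span 2072 bases and its principal transcript 964, whereas Rplp1 has 499 on both.

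Rpl5 and Rpl11, which carry 5S rRNA into the large subunit and, when free, bind the ubiquitin ligase Mdm2, were among the 3 lowest main copies. Rpl5 had 125, 130 and 126 counts, or 1.80 ± 0.0643 CPM per kb. Rpl11 had 125, 148 and 122 counts, or 2.72 ± 0.301 CPM per kb. Their partner Mdm2 had 1124 ± 77.9 CPM per kb, and the assembly factors of the 5S particle, Rpf2 and Rrs1, had 71.4 and 44.9 CPM per kb. The 5S-binding proteins were thus listed below both their partner and their assembly factors in each library. All 50-base coding windows of both genes also occur in transcripts of other genes, as described below, and the Rpl5 gene overlaps Dipk1a, listed with 773, 817 and 780 counts; the part of either in these values was not tested.

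In the remaining large subunit, Rpl32 averaged 1113 ± 140 CPM per kb, from 15855, 20307 and 21788 counts, and Rpl41, the smallest ribosomal protein, averaged 708 ± 108 CPM per kb, from 11758, 16290 and 16731 counts. The other low genes of the large subunit were Rpl21 at 4.24 ± 0.801 CPM per kb, with 257, 208 and 314 counts, and Rpl9 at 4.38 ± 0.386 CPM per kb, with 214, 267 and 247 counts. Both stood below the median of the other detected genes. Rpl30 and Rpl13a were not low, at 36.5 and 285 CPM per kb, but varied more than most, with coefficients of variation of 20.1% and 19.0% and the fewest counts in replicate 1.

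In the small subunit, Rps3, Rps2 and Rps9, named here from the mRNA entry channel, were high. Rps2 and Rps9 were named after their values were seen, so these genes do not stand for the whole channel. Rps3, which also takes part in quality control of stalled ribosomes, averaged 441 ± 31.6 CPM per kb from 31328, 36608 and 38767 counts. Rps2 averaged 469 ± 27.1 and Rps9 298 ± 38.1 CPM per kb. These 3 lay above the upper quartile of the main copies.

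The genes named here from the mRNA exit side differed more. Rps26 and Rps28 were also named after their values were seen. Rps14 averaged 636 ± 97.1 CPM per kb, from 21717, 30627 and 30079 counts. Rps26 averaged 420 ± 62.9 and Rps28 71.2 ± 10.1 CPM per kb. Rpsa, known also as a laminin receptor, averaged 30.6 ± 1.95 CPM per kb, from 1592, 1880 and 1756 counts. The ranges of these 4 genes did not overlap one another. Shared coding windows made up 51.7% in Rps14, 73.0% in Rps26, 100% in Rps28 and 98.8% in Rpsa. Their part in these differences was not tested.

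At the decoding centre, Rps15 averaged 737 ± 112 CPM per kb, from 6613, 8945 and 9558 counts, and Rps23 averaged 23.4 ± 2.54 CPM per kb. Shared coding windows made up 43.3% in Rps15 and 100% in Rps23, and their part in this difference was not tested. Rps6, the substrate of S6 kinase downstream of mTOR, averaged 30.3 ± 0.609 CPM per kb from 845, 869 and 874 counts, with a coefficient of variation of 2.01%. Rps19, the gene most often mutated in human Diamond-Blackfan anaemia, averaged 51.6 ± 5.87 CPM per kb, near the median on this scale. Its merged exons span 4685 bases and its principal transcript 774, so its place depends on the length used. Rps27a, made as a fusion with ubiquitin, averaged 18.5 ± 1.06 CPM per kb, from 592, 661 and 715 counts.

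Among the low small-subunit genes were Rps13 at 4.34 ± 0.361, Rps12 at 4.93 ± 0.923 and Rps27 at 7.90 ± 1.67 CPM per kb. Rps13 had 216, 192 and 221 counts, and Rps12 had 136, 207 and 198. The ranges of Rps13 and Rps12 overlapped, so their order is not resolved beyond the spread. Rps27 and Rps21 were also among the 5 most variable members, with coefficients of variation of 21.2% and 19.9%; Rps21 averaged 377 ± 74.8 CPM per kb from 4091, 6393 and 6030 counts.

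Of the 7 paralogs, 3 were detected and 4 were below 1 CPM, 3 of these with 2 counts or fewer in each library. Rps27l, a p53 target in human and mouse cells that is nearly the same protein as Rps27, was the highest paralog per kb of merged exons, though not in counts. It had 5613, 7291 and 7334 counts, against 120, 185 and 140 counts of Rps27. Per kb this was 459 ± 52.3 CPM for Rps27l and 7.90 ± 1.67 CPM for Rps27, a ratio of 59.8, 50.4 and 67.0 in replicates 1, 2 and 3 (59.0 ± 8.32). The paralog thus exceeded the main copy in each library, without overlap. The coding sequences are shown because they decide whether reads of the pair could be exchanged. Both have 252 bases without the stop codon and differ at 60 of them. Their longest identical run is 11 bases, so a longer read from the Rps27l coding sequence has no exact match at that place in Rps27. The sequences below are from GENCODE M21 transcripts (GRCm38), with Rps27l at chr9:66944624-66949522 on the + strand and Rps27 at chr3:90212667-90213648 on the - strand; capitals mark the bases at which the pair differs.
Rps27l: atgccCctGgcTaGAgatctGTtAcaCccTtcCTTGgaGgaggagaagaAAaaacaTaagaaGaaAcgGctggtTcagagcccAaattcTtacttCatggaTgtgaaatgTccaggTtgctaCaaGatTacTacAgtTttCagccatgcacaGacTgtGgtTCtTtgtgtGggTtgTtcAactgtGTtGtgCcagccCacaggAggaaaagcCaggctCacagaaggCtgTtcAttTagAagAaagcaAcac
Rps27: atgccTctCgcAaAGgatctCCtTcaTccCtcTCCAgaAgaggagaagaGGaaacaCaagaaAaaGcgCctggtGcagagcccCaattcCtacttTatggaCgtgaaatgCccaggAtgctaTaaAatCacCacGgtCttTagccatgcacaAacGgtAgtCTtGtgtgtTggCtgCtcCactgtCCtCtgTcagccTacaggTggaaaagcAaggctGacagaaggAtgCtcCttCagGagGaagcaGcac

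The pair differed in how much of it is found elsewhere in the genome. Of the 50-base windows of the coding sequence, 48.3% of Rps27l and 100.0% of Rps27 occurred in the transcript of another gene. Over the whole Rps27 transcript 98.6% did, which left 4 windows that occur in no other annotated transcript. Among its matches was Rps27rt, a protein-coding gene on chromosome 9 listed with 141, 175 and 173 counts. Divided by unique windows instead of exon length, the ratio of Rps27l to Rps27 turned to 0.529. The order of the pair thus depends on the scale, and no source used here says how reads from shared sequence were counted.

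Rpl22l1, the paralog of the RNA-binding protein Rpl22, had 6654, 9615 and 9227 counts, against 8218, 11189 and 10957 counts of Rpl22. Per kb it averaged 237 ± 38.3 CPM against 193 ± 25.8 CPM for Rpl22, a ratio of 1.23 ± 0.0369 that was above 1 in each library. Its order flips with the length used: the ratio was 0.900 per kb of the longest transcript, 3.11 per kb of the principal transcript and 0.837 without a length. Which gene of the pair had more transcripts is therefore not settled by these tables. Their coding sequences are 70.2% identical, with a longest identical run of 26 bases.

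Rpl7l1, a paralog found in human pre-ribosomes, had 4086, 4574 and 4303 counts, or 68.8 ± 3.17 CPM per kb, against 377 ± 41.4 CPM per kb for Rpl7. It was lower than the main copy in each library, at a ratio of 0.184 ± 0.0184, and its coefficient of variation was 4.60% against 10.98% for Rpl7. Rpl32l had 9, 11 and 11 counts, at a ratio of 0.00130 to Rpl32.

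The paralogs known from striated muscle and testis were at the limit of detection. Rpl3l, which replaces Rpl3 in striated muscle, had 0, 2 and 0 counts. Rpl10l, which serves in place of Rpl10 in male germ cells, had 1, 0 and 0 counts, and the testis paralog Rpl39l had none in any library. With no count in a library the level may still reach 3 counts, which is 0.161 to 0.174 CPM, and with none in any library 0.0556 CPM; these limits cover counting error only. No fold is given for these 3 pairs. Their main copies Rpl3, Rpl10 and Rpl39 had 166, 22.96 and 44.4 CPM.

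**Figure D2:**
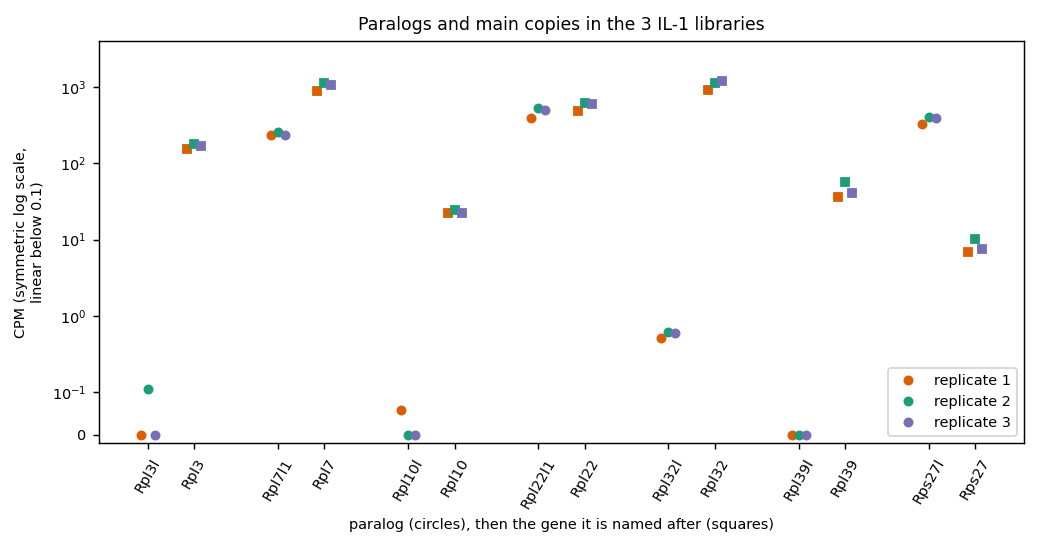
CPM of the 7 paralogs (circles) and of the genes they are named after (squares) in the 3 IL-1 libraries, on a log axis that is linear below 0.1 CPM. Rps27l lies above Rps27 in each library, Rpl22l1 just below Rpl22 and Rpl7l1 below Rpl7, while Rpl3l, Rpl10l and Rpl39l lie at or near 0.

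The level of a main copy went with how much of its coding sequence is found elsewhere. For each gene, every 50-base window of the coding sequence was searched, on both strands and without mismatch, in the annotated transcripts of all genes that do not overlap it. A read from a shared window fits more than 1 annotated transcript equally well, so the values of members with many shared windows are uncertain. The 11 main copies with under 50% shared windows had a median of 441 CPM per kb and reached 2642 (Rpl8). The 24 with 50% to under 90% had a median of 161 CPM per kb, and the 13 with 90% to under 100% one of 52.9. The 29 with 100% shared had a median of 11.2 CPM per kb, and ranged from 0.979 (Rpl28) to 708 (Rpl41).

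At the ends this left little overlap. Of the 15 main copies under 20 CPM, 14 had no coding window of their own, and the other, Rpl36, had 98.1% shared. Of the 9 at 1000 CPM or more, none had 90% shared. All of the 8 lowest main copies were 100% shared. In the set with all coding windows shared, Rpl41, Rpl38, Rpl15 and Rps28 still stood above the median of all main copies, at 708, 269, 116 and 71.2 CPM per kb. Over the whole transcript, however, these genes had 44.2%, 40.2%, 30.2% and 44.8% of windows shared, so they also have windows of their own. So did the 8 lowest main copies, with 26.2% (Rpl21) to 93.3% (Rpl9) of transcript windows shared. Among them, Rpl28 had 34.5% and Rpl5 48.6% shared, so windows of their own do not set the high genes apart. The part of shared sequence in these levels was not tested.

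Across the 77 main copies, Spearman's rho between the shared percentage and CPM per kb was -0.80. It was -0.77 in the large subunit and -0.85 in the small subunit. The genes share libraries, so they are not independent replicates and the correlation is a description. With windows of the whole transcript rho was -0.46. The number of pseudogenes that share a window went with level less closely, at -0.47, and the length of merged exons hardly at all, at -0.14. Rps2 shared with 71 pseudogenes and was listed at 469 CPM per kb, whereas Rpl28 shared with 4. Shared coding windows made up 84.1% in Rps2 and 100% in Rpl28.

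The members also differed widely when the CPM of the whole gene was divided by its number of unique windows. Reads that fall in unique windows were not counted apart, so this does not give the spread in unique sequence alone. The SD of log2 levels between main copies was 2.53 per kb of merged exons, 2.42 per kb of the principal transcript and 2.24 per 1000 windows of the principal transcript that occur nowhere else. The ratio of the ends was 2697 per kb of merged exons and 2694 per unique window. Rpl28 was the lowest on these 3 scales, whereas the highest was Rpl8 by length and Rplp1 per unique window. No source used here gives the read length or how reads that map to several places were treated, and the part of either in the level differences was not tested.

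**Figure D3:**
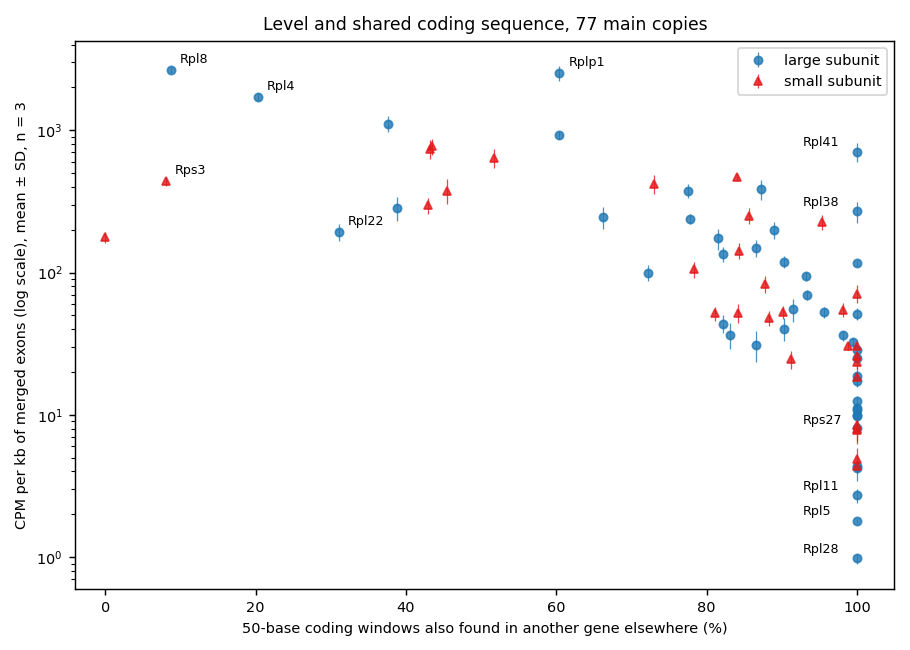
Level of each of the 77 main copies (mean ± SD of 3 libraries, CPM per kb of merged exons, log axis) against the percentage of its 50-base coding windows that also occur in a transcript of another gene. Levels fall from a median of 441 CPM per kb under 50% to 11.2 at 100%, with Rpl41 and Rpl38 high at 100%.

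Most members were lowest in the same library. Of the 80 detected members, 64 had their lowest CPM in replicate 1, 5 in replicate 2 and 11 in replicate 3. Among all 11224 detected genes, 30.2% were lowest in replicate 1. The median member stood at 0.824-fold in replicate 1 relative to replicates 2 and 3 averaged (log2 ratio -0.28), against a log2 ratio of 0.04 for the other genes. The range of this log2 ratio over members was -0.53 (Rpl30) to 0.16 (Rpl36), and replicates 2 and 3 differed by a median of 1.049-fold. Both subunits took part, with 37 of 48 large-subunit and 27 of 32 small-subunit members lowest in replicate 1.

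Some members were not low there: Rps6, Rpl5, Rps29 and Rpl24 had log2 ratios of 0.04, 0.05, 0.00 and 0.03. Higher ratios were found, among others, for Rpl36, Rpl28, Rps13 and Rps16, at 0.16, 0.16, 0.15 and 0.11. The coding windows of all genes just named were 98.1% to 100% shared with other genes. Less shared members were not lowest in replicate 1 either. Rps3a1 and Rpl7l1 had log2 ratios of 0.005 and -0.03, with 88.3% and 21.9% of coding windows shared. The part of shared sequence in these ratios was not tested. In bulk samples, fewer cells that make a transcript, less of it per cell and a technical difference between libraries cannot be told apart.

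Transcript length moved with the same ratio. Of the 51 members with a principal transcript under 1 kb, 41 were lowest in replicate 1, with a median of 0.801-fold, and of the 29 longer members 23 were, with a median of 0.868-fold. Among the other detected genes the share lowest in replicate 1 was 79.8% of 570 genes under 1 kb, 49.8% of 2181 at 1 to 2 kb, 23.6% of 4424 at 2 to 4 kb and 16.5% of 3528 at 4 kb or more. The other genes under 1 kb had a median of 0.867-fold. Among the 167 other genes under 1 kb at 100 CPM or more it was 94.0%, with 0.864-fold. The part of transcript length in the members' shift was not tested.

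**Figure D4:**
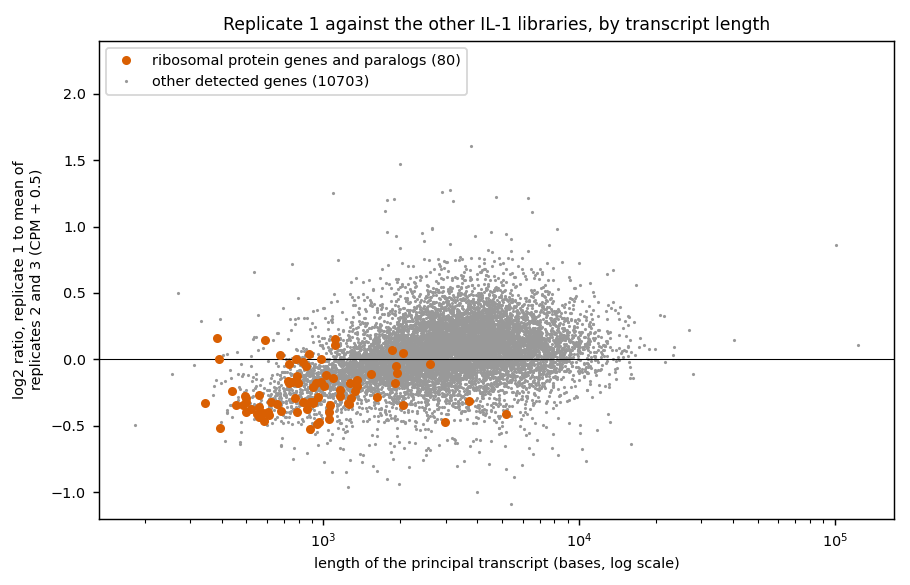
Log2 ratio of replicate 1 to the mean of replicates 2 and 3, from CPM + 0.5, against the length of the principal transcript (log axis), for the 80 detected members (orange) and 10703 other detected genes (grey). Most members lie below 0, with a median of -0.28, in the part of the plot where other short transcripts also lie below 0.

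A single coefficient of variation between libraries, computed as the root of the dispersion that edgeR fits to a set of genes, was 0.124 for the 80 members and 0.0933 for all 11784 genes kept by its expression filter. Without replicate 1 the order turned, with 0.0593 for the members and 0.0690 for all genes. Without replicate 3 it was 0.160 for the members and 0.113 for all genes. The wider spread of the members therefore rested on replicate 1.

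Pyrimidine tracts were counted around the annotated 5′ ends of the members. A tract was a run that opens with C and goes on with C or T for at least 8 bases in all, on the transcribed strand only, with its first base within 20 bases of a transcript start in the RefSeq promoter table (GRCm38.p6). That start need not be the outer end of the gene, which it was for 54 of the 76 promoters of members. It was found in 32 of the 64 members with a promoter sequence (50%) and in 15.8% of 17485 genes. With at least 10 bases the shares were 34.4% of members and 7.31% of all genes. The 4 windows of 30 bases below show the tract, in capitals, near the annotated start of main copies that were also high. They lie at chr9:64173362-64173391 (+, Rpl4), chr10:128626481-128626510 (-, Rps26), chr7:3704028-3704057 (+, Rps9) and chr7:45128722-45128751 (-, Rpl13a). Counted from the annotated start, the first base of the tract was at -17 in Rpl4 and -5 in Rps9, upstream of it. In Rpl13a it was at 2 and in Rps26 at 4. The Rpl4 tract has 13 bases, so it lay wholly upstream, outside the annotated transcript.
Rpl4: tgacaagtCTTTCCTTTTCCTgtgggagca
Rps26: cgccggatCCTCTTTCgagtcttggctcca
Rps9: cgccttgtCTCTCTTTgtctcgggcctgag
Rpl13a: cgacaagaCCTCCTCCTTTCCCaggcggct

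Levels of main copies with and without a tract overlapped. The 29 main copies with it had a median of 52.2 CPM per kb and a range of 0.979 to 1713; the 28 without it had a median of 63.1 and a range of 4.34 to 924. The tract is a match of letters in an annotated window, and the TOP motif proper depends on the exact first base of the mRNA, which these files do not give.

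The members were spread over 19 chromosomes, with 14 on chromosome 7 and 8 on chromosome 17. Small nucleolar RNA genes, whose products guide the modification of ribosomal RNA and are released from introns, lay inside 30 of the 84 members (35.7%), against 1.70% of 21896 protein-coding genes. Rpl4 held 5, and Rpl13a and Rpl7a held 4 each. Their own counts differed in size beside those of the host. The snoRNA genes inside Rpl13a had 32, 43 and 34 counts in all, beside 8371, 12912 and 11323 counts of Rpl13a, while the one inside Rpl12 had 125, 112 and 158 counts, beside 519, 699 and 693 of Rpl12. Of the 5 inside Rpl4, only 1 has an ID in the tables.

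Other genes of the translation machinery set the members in context, all as mean CPM per kb. The 4 listed cytosolic ribosomal protein genes outside the naming rule were all detected, with Rack1 at 316, Rpl36al at 89.2 and Fau at 39.5, and all 4 were lowest in replicate 1. The list does not hold Rps27rt, which the rule also misses. Of 78 mitochondrial ribosomal protein genes, 77 were detected, with a median of 34.6, led by Mrpl34 at 224, Mrpl28 at 175 and Mrpl52 at 157, and 59 of the 77 were lowest in replicate 1 at a median of 0.922-fold. Of 10 elongation factor genes 9 were detected, with a median of 98.2; Eef1a1, which delivers aminoacyl-tRNA, stood at 2275, Eif5a at 850 and Eef2 at 576.

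Of 36 initiation factor genes 35 were detected, with a median of 63.9, led by the Eif3 subunits Eif3h at 488, Eif3l at 252 and Eif3m at 152. All 48 ribosome biogenesis genes were detected, with a median of 39.7; the nucleolar chaperone Npm1 stood at 492, Nhp2 at 262 and Eif6 at 199. In replicate 1, where 30.2% of all detected genes were lowest, so were 10 of 48 biogenesis, 14 of 35 initiation and 5 of 9 elongation factor genes, with medians of 1.054-fold, 0.995-fold and 0.966-fold; the difference of these lists from the members was not tested. Of 17 listed regulators of TOP mRNAs and mTOR signalling 16 were detected, with a median of 6.71, led by the TOP-binding protein Cnbp at 605, Eif4ebp1 at 240 and Rheb at 42.5.

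The cells had most of the listed markers of their label. Of 12 fibroblast markers 11 were detected, with S100a4, Vim and Sparc highest at 2377, 667 and 392 CPM per kb. The lowest of the 11 was Thy1 at 3.42 CPM per kb, and Lum, at a mean of 0.616 CPM, was not detected. Of the 11, 7 were lowest in replicate 1. The 4 epithelial, 3 endothelial and 2 erythroid markers were below 1 CPM, and the erythroid ones had 0 counts. Of 6 leukocyte and macrophage markers 4 passed 1 CPM, and the 6 summed to 39.8, 48.7 and 46.2 CPM in the libraries. Most of this was Cd14, at a mean of 31.1 CPM. At 17.9 CPM per kb it stood above the fibroblast markers Col3a1 (16.4), Pdgfra (9.55), Pdgfrb (8.58) and Thy1.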

How the data were processed

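The 12 deposited tables hold raw counts per Entrez gene ID, with no normalization. The submitters' processing notes name CASAVA, STAR and featureCounts with build mm10; no source used here gives their versions, the read length, the strand setting or what was done with reads that map to several places. As the labels' protocols say, lysates of cells passaged up to 20 times went into reverse transcription directly, with 10 cycles of pre-amplification before tagmentation. No molecular identifiers are mentioned, so counts are reads. The 9 tables identical to IL-1 replicate 3, which also carried its alignment name in their headers, were left out.

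RefSeq (GRCm38.p6) gave symbols for 25275 of the 27179 IDs. CPM used library totals; detection meant 1 CPM or more in each of the 3 libraries. Exon and transcript lengths and shared windows of 50 bases came from GENCODE M21, which gave lengths for all 84 members. The longest transcript is the longest annotated one, the principal transcript the one annotated as principal. With 1 group there was no comparison between groups and no test. The members and gene lists were chosen with earlier results of these data known.

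Named genes were all paralogs with their main copies, the 8 highest and 8 lowest main copies per kb, members with no counts, the 5 with the largest coefficient of variation at 5 CPM or more, the members fixed by name for a known role and the 3 highest of each companion list; other names were chosen after their values were seen. A few genes under this rule are not reported here. Scaling factors and dispersions came from edgeR 4.0.16 in R 4.3.3; the dispersion estimate was tested on simulated data. Python 3.11.15, numpy 2.4.6, pandas 2.3.3 and biopython 1.88 did the rest. Alternatives were other length scales, scaling factors, thresholds, window sizes and each library left out.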

Additional observations from a re-analysis of the deposited data

Results flagged for a closer look

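The tables also list pseudogenes of the members, which enter no value above. RefSeq names 321 pseudogenes after members, and 34 of them have an ID in the tables. These held 817 counts in all, 226, 319 and 272 in replicates 1, 2 and 3. Of the 34, 20 had a count in every library and 9 had none. The highest were Rpl13-ps6 with 48, 54 and 56 counts, Rpl17-ps10 with 52, 65 and 39, and Rpl36-ps12 with 21, 31 and 30. Reads from a main copy and from its pseudogene cannot be told apart where they share sequence.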

How the results depend on the processing

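Leaving out each library in turn kept the number of detected members at 80, and moved the members' share of counts between 3.03% and 3.33%, their median between 52.0 and 57.8 CPM per kb, and the ratio of Rps27l to Rps27 between 55.1 and 63.4. The spread of the members was the exception, at 0.0593 to 0.160 with a library left out; with TMM and relative log expression factors it was 0.139 and 0.140. Under those factors 67 and 68 members were lowest in replicate 1.

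Values per kb depended on the length. The median over all 84 members, 54.5 CPM per kb, was 88.9 with the longest transcript, 127 with the principal transcript and 62.1 over detected members only. The subunit ratio was 0.493 with the principal transcript and 0.810 with paralogs included. The ratio of Rpl22l1 to Rpl22 was 0.900 with the longest transcript, 3.11 with the principal transcript and 7.39 per unique window. That of Rps27l to Rps27 was 31.9 with the principal transcript and 0.529 per unique window, where Rps27 has only 4 windows. Rpl7l1 to Rpl7 gave 0.147, 0.107 and 0.0533 on these scales, and Rpl32l to Rpl32 gave 0.00122 with either transcript and 0.00171 per unique window. The causes were not tested beyond the change of length itself.

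Spearman's rho of shared windows with level was -0.81 with the principal transcript, -0.76 and -0.75 with windows of 75 and 100 bases, and -0.46 over whole transcripts. That of pseudogene number was -0.44 with the principal transcript, and between -0.47 and -0.46 with a library left out. From 50 bases before to 40 after the start, 50 of the 64 members with sequence had a tract of 8 bases (78.1%, against 31.5% of all genes) and 58 one of 6 (90.6%, against 59.9%).

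No paired analysis was possible because no other group than IL-1 had distinct tables. Depth limits the lowest members, such as Rpl28 with 31 to 34 counts per library.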
